A study of Drosophila melanogaster with 24 samples.

Results

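Transcript levels were compared between sima mutant and control larvae of Drosophila melanogaster at 60 h after egg laying. The comparison took in every larval library of the study, 6 of its 24 samples, and every gene row of the larval table. Mutants, labelled Sima 1/20, carried the sima alleles 1 and 20 on the paired chromosomes, and controls, labelled Sima 1/+, carried allele 1 over a wild-type copy, so allele 1 was present in both groups. Each group held 3 libraries made from RNA of whole larvae. The labels name neither the lesion of each allele nor the number of larvae per library, and they do not say whether the 3 samples of a group came from separate cultures. The p-values therefore measure the spread between these samples, which may be technical.

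The sima gene encodes the fly hypoxia-inducible factor 1-alpha. When oxygen is available, the prolyl hydroxylase Hph marks the protein and the ubiquitin ligase subunit Vhl sends it to degradation. When it accumulates, it pairs with Tango (tgo) and activates genes for anaerobic energy metabolism. Fly larvae grow quickly on sugar, and during larval life they run an aerobic form of glycolysis that ends in lactate. The question in the study's title is whether sima is needed to set up that glycolytic program.

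The larval table listed 17895 genes, of which 3551 stood at 0 in all 6 samples. Levels are FPKM, fragments per kilobase of gene, scaled to the size of the library. The estimated depth was 10.3 to 12.7 M fragments in controls and 12.3 to 15.2 M in mutants, and 8451 to 8633 genes per sample reached 1 FPKM. Across genes, Pearson's r was 0.975 to 0.979 among controls, 0.961 to 0.970 among mutants and 0.926 to 0.960 between genotypes. Control 3 stood apart from the other controls in some abundant transcripts. Its mitochondrial genome transcripts summed to 152300 FPKM, against 97712 and 114290 in the other controls and 89256 to 102490 in mutants. Its midgut marker transcripts summed to 10348 FPKM, against 19214 and 18036 in the other controls and 18468 to 26558 in mutants. Mutant 2 differed from the other mutants in genes that change around moults, as given below.

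Of the 17895 genes, 8619 reached 1 FPKM in at least 3 samples and were tested with limma on log2(FPKM + 1). Every log2 fold change below refers to that scale, on which genes of low level move less than their true ratio. A gene was called when its limma p, adjusted over all 8619 genes by the method of Benjamini and Hochberg (BH), was under 0.05. A total of 810 genes, or 9.40% of those tested, were called. Of these, 358 were higher in mutants (4.15%) and 452 lower (5.24%). Higher genes thus made up 44.2% of the calls. With quantile normalization the split was 412 higher and 337 lower, or 55.0% higher, so the balance of directions over all genes depended on the scaling. An absolute log2 fold change of 1 or more was seen in 242 of the called genes, 123 higher and 119 lower. For all 810, the 3 mutant values lay entirely above or entirely below the 3 control values, which held for 34.8% of all genes tested. Some low genes passed the filter only through the group in which they were higher, so their calls are partly set by it. These include E23 among the rises and Ugt35C1, Ugt302E1, Mal-A5, TwdlR and snoRNA:Me28S-A2564 among the falls. Others are marked below. The count of called genes shrank strongly when any sample except mutant 1 was left out. It was 200 without control 2, 206 without control 1, 241 without mutant 2, 274 without mutant 3 and 369 without control 3. Without mutant 1 it was 797, with 324 higher and 473 lower.

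**Figure D1:**
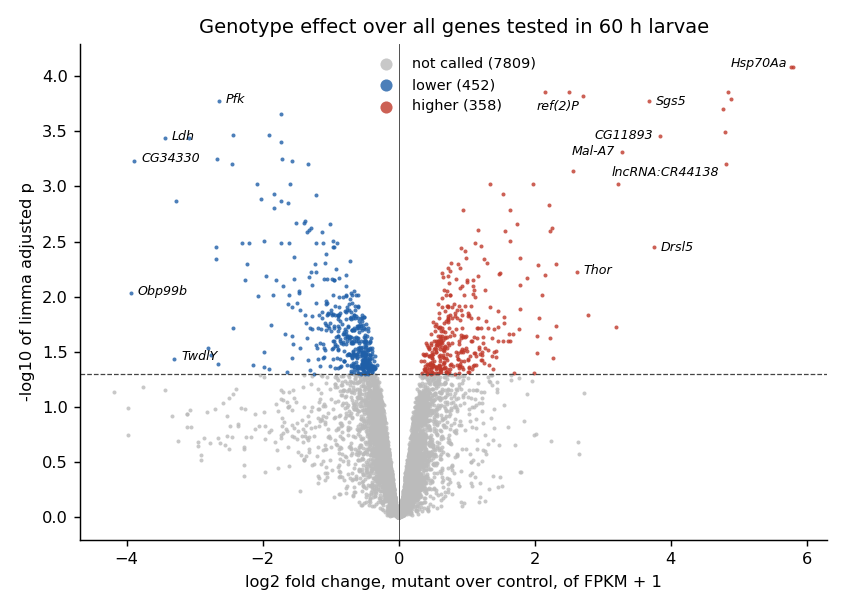
Each point is 1 of the 8619 genes tested, placed by its log2 fold change of FPKM + 1, mutant over control, on the horizontal axis and by the -log10 of its limma BH-adjusted p on the vertical axis. The dashed line is the threshold of 0.05, above which lie 452 lower and 358 higher genes; Hsp70Aa and Hsp70Ab are the called genes farthest to the right, and Obp99b and CG34330 those farthest to the left.

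Genes were grouped in 59 lists of pathways, families and tissue markers, and each list was described by its counts and its median, beside the background of all genes tested (median log2 fold change -0.03). Members and lists were chosen with earlier results of these data known, so these counts are a description and no list was tested. The genes of glycolysis, glycogen, the pentose phosphate pathway and body wall muscle were lower in mutants far more often than the background. Heat-shock chaperones, detoxifying enzymes and some gut proteases and maltases were higher more often than it. Genes of cytosolic ribosomes, oxidative phosphorylation, the proteasome and blood cells were rarely called or not called.

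**Figure D2:**
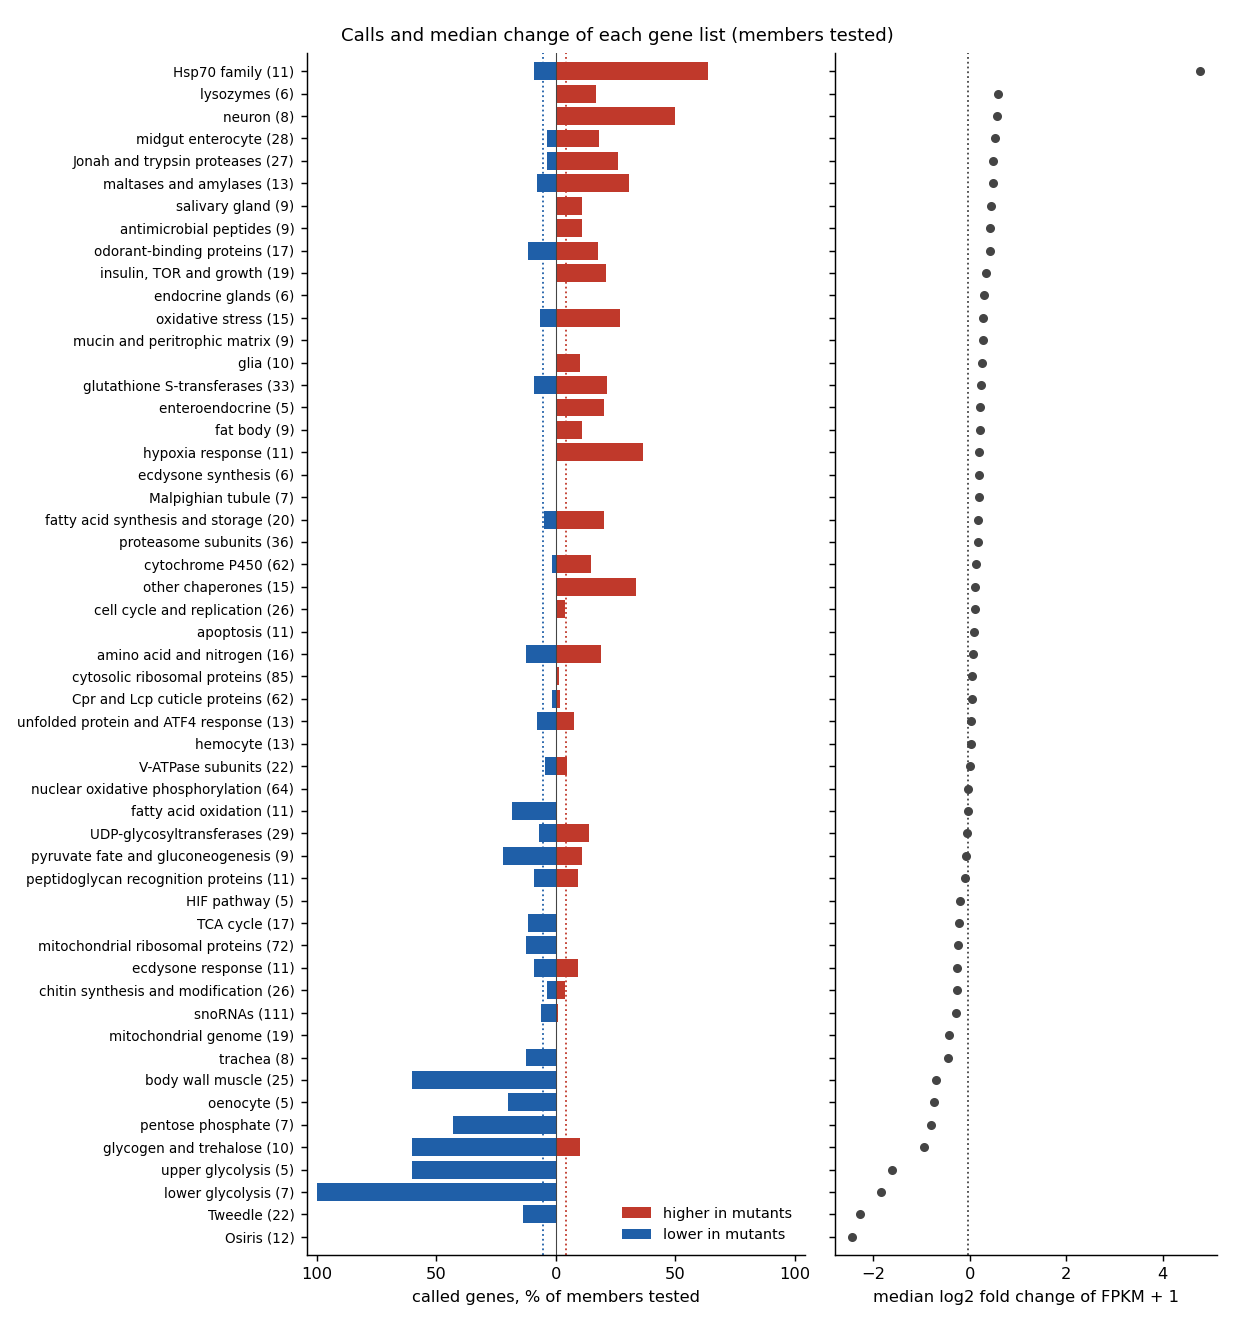
Gene lists with at least 5 members tested, ordered by median log2 fold change of FPKM + 1 (right). Bars show the percentage of tested members called higher (to the right) and lower (to the left), the number tested stands in brackets after each name, and dotted lines mark the values over all genes tested. Lower glycolysis has all 7 tested members called lower, and the Hsp70 family has the highest median.

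The mutated gene itself was expressed at a low level in both groups. sima (FBgn0266411, chromosome arm 3R, bases 30058311 to 30121798 of the plus strand in the BDGP6.54 annotation) stood at 1.56, 1.64 and 1.63 FPKM in controls and at 1.26, 1.31 and 1.19 FPKM in mutants. The groups did not overlap, but the log2 fold change of -0.21 (SE 0.08) did not pass the test (BH-adjusted p 0.17). Because the lesions are not given in the sources used here, the transcript level does not check the genotype labels. None of the 5 members of the pathway list passed, while 3 had an unadjusted p under 0.05, and voom, which weights genes by estimated fragment numbers, called 1. Hph stood at 1.66 to 1.74 FPKM in controls and 0.955 to 1.22 FPKM in mutants (log2 fold change -0.36, BH-adjusted p 0.063). Vhl had a log2 fold change of -0.25 and tgo of 0.02, and ERR, the nuclear receptor that also drives glycolytic genes in larvae, of 0.05 (BH-adjusted p 0.151, 0.90 and 0.855).

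Most genes of glycolysis fell. Of the 6 listed genes of upper glycolysis, from hexokinase to aldolase, 5 were tested and 3 fell. Pfk, phosphofructokinase, which commits sugar to glycolysis, stood at 31.4, 30.3 and 31.3 FPKM in controls and at 3.80, 4.91 and 3.71 FPKM in mutants. Its level in controls was 7.49 times that in mutants, with a log2 fold change of -2.65 (SE 0.11, BH-adjusted p 0.000169). All 3 mutant values lay far below the control values, which were close to each other. Pgi, glucose-6-phosphate isomerase, stood at 108, 121 and 110 FPKM in controls and 18.3, 24.6 and 17.2 FPKM in mutants (log2 fold change -2.45, SE 0.15, BH-adjusted p 0.000626). Ald1, the aldolase that splits the sugar, was measured at 227, 217 and 200 FPKM in controls and 62.0, 85.3 and 63.9 FPKM in mutants (log2 fold change -1.61, SE 0.14, BH-adjusted p 0.00327). Mutant 2 was the highest of the mutants in all 3 genes without reaching the controls. The calls of these 3 genes held in all 14 alternative settings, which changed the scaling, the filter or the model or left out 1 sample.

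The hexokinases, which bring glucose into the pathway, did not pass. Hex-A had 28.9 to 35.0 FPKM in controls and 23.7 to 27.2 FPKM in mutants (log2 fold change -0.30, BH-adjusted p 0.126). Hex-C had 39.5 to 47.5 and 30.7 to 39.5 FPKM (log2 fold change -0.35, BH-adjusted p 0.137). Ald2 was below the filter.

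Of the 7 listed genes of lower glycolysis, which take the split sugar to pyruvate and yield ATP, all 7 were tested and all 7 fell, with a median log2 fold change of -1.84. The most abundant was Gapdh2, 1 of the glyceraldehyde-3-phosphate dehydrogenases, with 978, 1012 and 946 FPKM in controls and 226, 268 and 201 FPKM in mutants (log2 fold change -2.08, SE 0.14, BH-adjusted p 0.000949). Its groups were separated by a wide gap. Pglym78, phosphoglycerate mutase, stood at 164, 148 and 101 FPKM in controls and 22.8, 34.9 and 27.9 FPKM in mutants (log2 fold change -2.22, SE 0.23, BH-adjusted p 0.00506). Here control 3 was the lowest control, yet all 3 mutants were far below it. Gapdh1 and Pgk, phosphoglycerate kinase, both had a log2 fold change of -1.84 (BH-adjusted p 0.00972 and 0.00156). Eno, enolase, had one of -1.46 (BH-adjusted p 0.00893).

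The remaining members, Tpi and PyK, were called with less margin. Tpi, triose-phosphate isomerase, stood at 154, 128 and 78.5 FPKM in controls and 29.3, 55.1 and 35.4 FPKM in mutants. Its controls were spread more widely than those of the other glycolytic genes, and its log2 fold change of -1.56 (SE 0.32, BH-adjusted p 0.0357) was called in 7 of 14 alternatives. PyK, pyruvate kinase, stood at 93.5, 96.9 and 82.6 FPKM in controls and 52.2, 71.1 and 58.5 FPKM in mutants, the smallest change of the pathway's called genes (log2 fold change -0.59, SE 0.14, BH-adjusted p 0.0496). It was called in 2 of 14 alternatives. Across the alternatives, 3 to 7 members of lower glycolysis were called, and none was called higher. Muscle, a tissue rich in glycolytic enzymes, had lower marker levels in mutants too, with a summed 12349 to 13733 FPKM over 25 genes in controls and 6169.5 to 8874.6 FPKM in mutants. Its part in the falls of glycolytic genes was not tested.

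**Figure D3:**
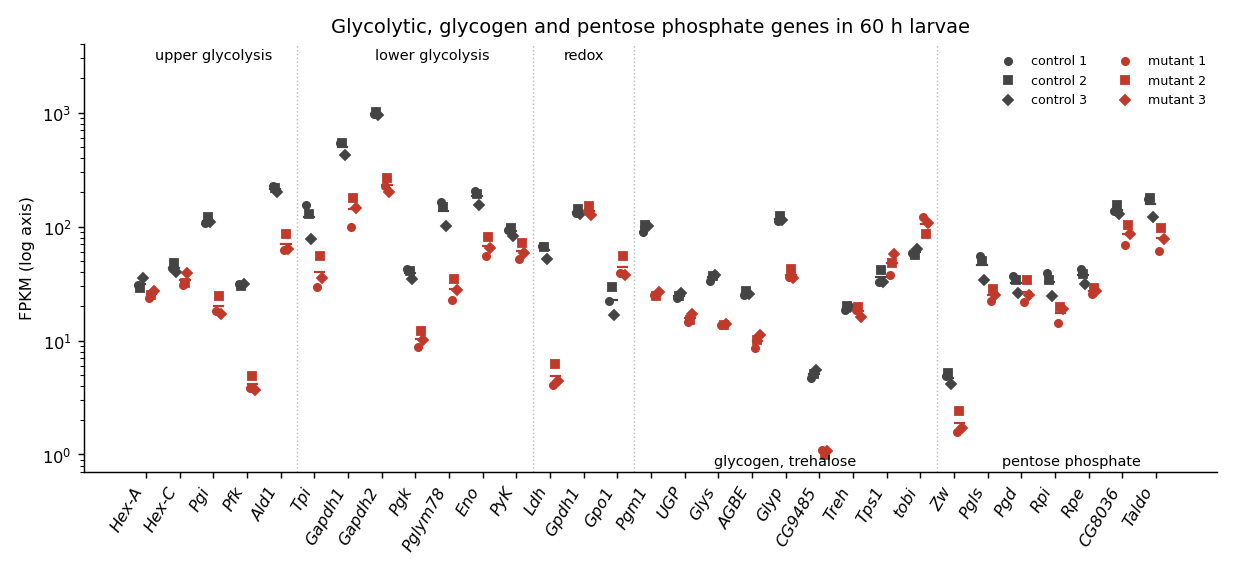
FPKM on a log axis for genes of sugar metabolism in each of the 3 control (dark) and 3 mutant (red) samples, with marker shape giving the sample and the short line the arithmetic mean of the group. From Pgi to Eno the mutant points lie below all control points; Gpdh1, Treh, Tps1 and Pgd overlap, and tobi lies above.

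Ldh, lactate dehydrogenase, which turns pyruvate to lactate and returns the NAD+ that glycolysis needs, had the largest fall of the pathway lists. It stood at 68.0, 66.8 and 51.8 FPKM in controls and 4.04, 6.23 and 4.37 FPKM in mutants. The control mean was 12.7 times the mutant mean (log2 fold change -3.43, SE 0.18, BH-adjusted p 0.000366), and the call held in all 14 alternatives. The other route of NAD+ return in larvae runs through glycerol-3-phosphate, and its genes were not called. Gpdh1, the cytosolic dehydrogenase of that route, stood at 133, 143 and 128 FPKM in controls and 136, 152 and 127 FPKM in mutants (log2 fold change 0.04, BH-adjusted p 0.852), so the groups overlapped fully. Gpo1, its mitochondrial partner, stood at 22.0, 29.4 and 16.9 FPKM in controls and 39.3, 55.3 and 37.2 FPKM in mutants. This log2 fold change of 0.93 did not pass (BH-adjusted p 0.0602), although it did in 4 of 14 alternatives.

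Glycogen genes fell on both the building and the breaking side. Of 10 genes tested in the glycogen and trehalose list, 6 fell and 1 rose. Pgm1, phosphoglucomutase, which links glycogen to glycolysis, stood at 89.3, 104 and 101 FPKM in controls and 24.9, 24.6 and 26.9 FPKM in mutants (log2 fold change -1.91, SE 0.09, BH-adjusted p 0.000342). The mutant values were nearly equal and far below every control. On the building side, the log2 fold changes were -1.33 for Glys, glycogen synthase, and -1.29 for AGBE, the branching enzyme (BH-adjusted p 0.000626 and 0.00236). UGP, which makes the UDP-glucose used for it, changed by -0.62 (BH-adjusted p 0.0151).

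On the breaking side, Glyp, glycogen phosphorylase, went from 111, 123 and 113 FPKM in controls to 35.8, 42.3 and 35.2 FPKM in mutants (log2 fold change -1.60, SE 0.10, BH-adjusted p 0.000949). CG9485, the debranching enzyme, fell by 1.57 on the log2 scale (BH-adjusted p 0.00059). The genes of trehalose, the sugar of the hemolymph, were not called. Tps1, which makes trehalose, had a log2 fold change of 0.39 and Treh, which splits it, of -0.10 (BH-adjusted p 0.219 and 0.544). The member that rose was tobi, a fat body glucosidase gene known to respond to insulin and glucagon-like signals, from 58.6, 56.1 and 63.4 FPKM in controls to 121, 85.2 and 107 FPKM in mutants (log2 fold change 0.79, BH-adjusted p 0.0264).

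The pentose phosphate pathway, which yields NADPH and ribose, had 7 tested members, all with a negative log2 fold change, and a median of -0.81. Of these, 3 were called, all lower. Zw, glucose-6-phosphate dehydrogenase and the entry step, stood at 4.86, 5.14 and 4.14 FPKM in controls and 1.56, 2.39 and 1.70 FPKM in mutants (log2 fold change -0.99, SE 0.14, BH-adjusted p 0.0131). Taldo, transaldolase, fell by 1.00 and CG8036, transketolase, by 0.71 on the log2 scale (BH-adjusted p 0.0428 and 0.0487). The call of CG8036 held in 3 of 14 alternatives. Rpi, Pgls, Rpe and Pgd did not pass, and no alternative called more than 5 members.

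Around pyruvate and the TCA cycle the changes were fewer and smaller. Pepck2 and fbp, both of gluconeogenesis, fell. Pepck2 went from 6.20, 5.37 and 6.97 FPKM to 2.60, 1.99 and 2.48 FPKM (log2 fold change -1.09, BH-adjusted p 0.00684), and fbp had a log2 fold change of -0.58 (BH-adjusted p 0.0211). Men, the cytosolic malic enzyme that yields NADPH, rose (log2 fold change 0.50, BH-adjusted p 0.0318). The pyruvate dehydrogenase subunits Pdha and Pdhb had log2 fold changes of 0.40 and 0.62 that did not pass (BH-adjusted p 0.0927 and 0.248). Of 17 genes tested in the TCA cycle list, 2 fell, or 11.8%, against 5.24% lower and 9.40% called over all genes. These were Mdh1, the cytosolic malate dehydrogenase (283, 252 and 210 FPKM in controls, 113, 134 and 124 FPKM in mutants, log2 fold change -0.99, BH-adjusted p 0.0142), and Idh (log2 fold change -0.70, BH-adjusted p 0.0153). Across the alternatives, 0 to 2 members were called. The list's median was -0.23.

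Lipid genes moved in both directions. Of 20 tested genes of fatty acid synthesis and storage, 4 rose and 1 fell. FASN1, fatty acid synthase, stood at 102, 123 and 145 FPKM in controls and 237, 257 and 205 FPKM in mutants (log2 fold change 0.92, SE 0.16, BH-adjusted p 0.0237). AcCoAS, acetyl-CoA synthetase, rose by 0.74 and Desat1, a desaturase, by 0.47 on the log2 scale (BH-adjusted p 0.0272 and 0.0407). sug, the sugar-sensing transcription factor sugarbabe, stood at 0.640, 0.985 and 0.387 FPKM in controls and 2.61, 2.23 and 4.10 FPKM in mutants (log2 fold change 1.24, BH-adjusted p 0.0234). Lsd-2, a lipid droplet protein, fell (log2 fold change -0.47, BH-adjusted p 0.0402). These calls were not firm: without control 1 or control 2 none of the 20 was called, and without mutant 2 or mutant 3 none of the 19 still tested. The gene left untested there was sug, which passed the filter only through its mutant values, so its rise is partly set by the filter. In fatty acid oxidation, 2 of 11 genes, Mtpalpha and yip2, fell, with log2 fold changes of -0.58 and -0.57 (BH-adjusted p 0.0165 and 0.0286).

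Among 16 tested genes of amino acid and nitrogen metabolism, 3 rose and 2 fell. AsnS, asparagine synthetase, stood at 59.2, 55.1 and 66.3 FPKM in controls and 239, 201 and 176 FPKM in mutants, 3.41 times as high (log2 fold change 1.75, SE 0.14, BH-adjusted p 0.00221). Nmdmc, a mitochondrial enzyme of folate-linked one-carbon metabolism, stood at 1.93, 1.73 and 1.25 FPKM in controls and 7.28, 7.08 and 5.96 FPKM in mutants (log2 fold change 1.56, SE 0.13, BH-adjusted p 0.00254). Both calls held in all 14 alternatives. P5CS, of proline synthesis, rose by 1.00 on the log2 scale (BH-adjusted p 0.0225). Sardh, of glycine metabolism, and Got1, of aspartate metabolism, had log2 fold changes of -0.87 and -0.52 (BH-adjusted p 0.0166 and 0.0286).

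Inducible heat-shock genes showed the largest rises of the whole comparison. The Hsp70 genes encode chaperones that are nearly silent in unstressed cells and strongly switched on by misfolded protein. Of 11 tested members of the Hsp70 family, 7 rose and 1, the cognate Hsc70-3, fell. Hsp70Aa stood at 1.14, 1.46 and 0.791 FPKM in controls and 102, 118 and 133 FPKM in mutants, and Hsp70Ab at 1.27, 1.43 and 0.727 FPKM against 99.6, 116 and 131 FPKM. The 4 genes of the Hsp70B group stood at 0.878 to 2.24 FPKM in controls and 45.2 to 79.3 FPKM in mutants. Their log2 fold changes were 5.81 for Hsp70Aa, 5.77 for Hsp70Ab, 4.89 for Hsp70Bbb, 4.85 for Hsp70Bc, 4.80 for Hsp70Bb and 4.77 for Hsp70Ba (BH-adjusted p 8.18e-05 to 0.000321). All 6 were called in all 14 alternatives, and mutant 1 was the lowest mutant in each. These genes are near-identical copies whose reads the counting could share or drop, so the division between copies is uncertain and they are not 6 separate observations.

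Some other chaperones of the same response rose with them. Hsp68 stood at 16.1, 24.5 and 22.3 FPKM in controls and 70.0, 112 and 111 FPKM in mutants (log2 fold change 2.16, SE 0.24, BH-adjusted p 0.00632). Among the small heat-shock proteins, Hsp26 went from 7.23, 7.69 and 4.74 FPKM to 55.6, 83.4 and 69.3 FPKM (log2 fold change 3.23, SE 0.21, BH-adjusted p 0.000949), and Hsp23 from 15.6, 17.5 and 10.4 FPKM to 57.0, 88.2 and 81.4 FPKM (log2 fold change 2.31, SE 0.24, BH-adjusted p 0.00509). The co-chaperone DnaJ-1 rose by 1.09, Hsp67Bc by 0.90 and the Hsp90 gene Hsp83 by 0.62 on the log2 scale (BH-adjusted p 0.00955, 0.0163 and 0.026). In all, 5 of 15 tested chaperones outside the Hsp70 family rose and none fell. Hsp27, l(2)efl and stv had log2 fold changes of 0.55, -0.24 and -0.03 that did not pass (BH-adjusted p 0.109, 0.444 and 0.888). Hsp22 stood at 0 in every sample, and Hsp67Ba was below the filter.

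Constitutive and compartment-specific chaperones did not follow. Hsc70-4, the abundant cytosolic Hsp70 cognate, had a log2 fold change of 0.19, the mitochondrial Hsc70-5 of -0.11, and Hsp60A of 0.31 (BH-adjusted p 0.509, 0.575 and 0.473). Hsf, the transcription factor of the heat-shock response, stood at 7.86 to 8.09 FPKM in controls and 7.61 to 8.63 FPKM in mutants (log2 fold change 0.01, BH-adjusted p 0.948). Hsc70-3, the endoplasmic reticulum chaperone BiP, fell (log2 fold change -0.52, BH-adjusted p 0.0444), as did Pdi, a protein disulfide isomerase of the same compartment (log2 fold change -0.43, BH-adjusted p 0.045). Both of these calls held in 3 of 14 alternatives. In the list of the unfolded protein and ATF4 response, with 13 genes tested, Pdi was the only one lower and Thor the only one higher. That list does not hold Hsc70-3, AsnS or Nmdmc, whose calls were counted in other lists.

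**Figure D4:**
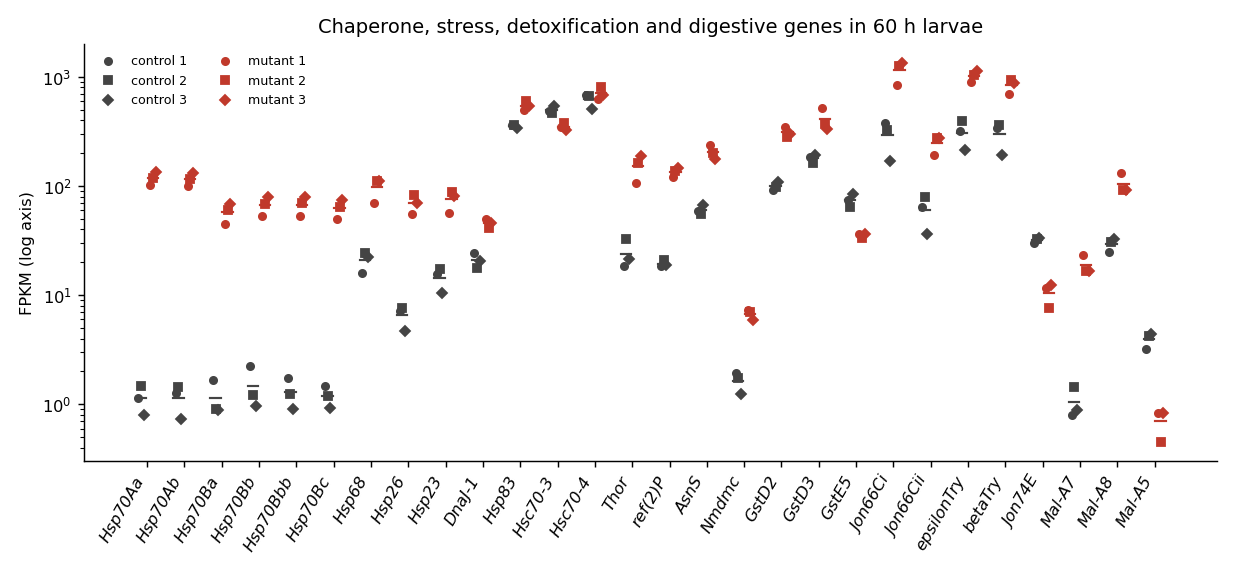
FPKM on a log axis for chaperone, stress, detoxification and digestive genes in each of the 3 control (dark) and 3 mutant (red) samples; marker shape gives the sample and the short line the arithmetic mean. The 6 Hsp70 copies lie near 1 FPKM in every control and above 45 FPKM in every mutant, while Hsc70-4 overlaps between groups and Hsc70-3, GstE5, Jon74E and Mal-A5 lie lower in mutants.

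In the list of the response to low oxygen, with 11 genes tested, 4 rose and none fell. Beside Hsp68 and Hsp23, those that rose were Thor and glob1. Ldh and the glycolytic genes that fell were counted in other lists, so the absence of falls here does not cover them. Thor, the 4E-BP that restrains translation when it is active, stood at 18.3, 32.4 and 21.4 FPKM in controls and 107, 163 and 190 FPKM in mutants, 6.38 times as high (log2 fold change 2.62, SE 0.28, BH-adjusted p 0.006). The glob1 gene, for the larval globin of trachea and fat body, stood at 47.1, 45.7 and 42.8 FPKM in controls and 96.5, 73.5 and 83.7 FPKM in mutants (log2 fold change 0.88, SE 0.12, BH-adjusted p 0.0122). The TOR brakes scyl and chrb had log2 fold changes of 0.10 and 0.18, and Pdk, which shuts off pyruvate dehydrogenase, of 0.24 (BH-adjusted p 0.677, 0.356 and 0.0996). The glob2 and glob3 genes were below the filter.

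In the list of insulin, TOR and growth genes, 4 of 19 tested members rose and none fell. Besides Thor these were daw, Ilp6 and AkhR. The daw gene encodes dawdle, an activin-like ligand that is regulated by nutrition and stood at 1.11, 1.26 and 1.25 FPKM in controls and 4.83, 4.23 and 4.69 FPKM in mutants (log2 fold change 1.34, SE 0.09, BH-adjusted p 0.000949). Its 3 mutant values were all more than 3 times the highest control value. Ilp6, the insulin-like peptide of the fat body, and AkhR, the receptor of adipokinetic hormone, had log2 fold changes of 0.75 and 0.65 (BH-adjusted p 0.0225 and 0.0407), but they were called in 7 of 13 and 6 of 14 alternatives. The brain insulin genes Ilp2, Ilp3 and Ilp5 had log2 fold changes of 0.66, 0.33 and 0.58 that did not pass, and foxo of 0.01 (BH-adjusted p 0.152, 0.55, 0.0572 and 0.953).

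Genes for protein clearance and detoxification rose in part. Of the 15 tested genes of the oxidative stress list, 4 rose and 1 fell. The ref(2)P gene, the fly p62, an adaptor that brings ubiquitinated protein to autophagy, stood at 18.6, 21.0 and 18.9 FPKM in controls and 121, 136 and 145 FPKM in mutants, 6.87 times as high (log2 fold change 2.72, SE 0.10, BH-adjusted p 0.00015). GstD2, a glutathione S-transferase, stood at 91.6, 97.4 and 109 FPKM in controls and 350, 282 and 300 FPKM in mutants (log2 fold change 1.63, SE 0.12, BH-adjusted p 0.00164). Both were called in all 14 alternatives. Prx6b rose by 0.70 on the log2 scale (BH-adjusted p 0.0478), and Cat, catalase, fell by 0.56 (BH-adjusted p 0.025). None of 36 tested proteasome subunit genes was called by limma or voom, though 4 had an unadjusted p under 0.05, 32 of them had a positive log2 fold change and their median was 0.17.

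The glutathione S-transferases as a family had 7 of 33 tested members higher and 3 lower. After GstD2 the largest rises were GstD8, GstD3 and GstD9 (log2 fold changes 1.46, 1.16 and 0.87, BH-adjusted p 0.0136, 0.0192 and 0.0327), which lie in a cluster with GstD2 on arm 3R. GstE5 fell by 1.06, GstT3 by 0.71 and GstO2 by 0.53 on the log2 scale (BH-adjusted p 0.00695, 0.0233 and 0.0319). Of 62 cytochrome P450 genes tested, 9 rose and 1 fell. Cyp6a8 stood at 10.9, 12.5 and 12.5 FPKM in controls and 30.7, 25.3 and 31.6 FPKM in mutants (log2 fold change 1.21, SE 0.11, BH-adjusted p 0.00347). Cyp12d1-d and its near-identical neighbour Cyp12d1-p rose by 1.48 and 1.27 on the log2 scale, and the reads of the pair may be shared (BH-adjusted p 0.00628 and 0.00861). Cyp12a5 rose by 0.83, and Cyp28d2 fell by 1.21 (BH-adjusted p 0.0142 and 0.0273).

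UDP-glycosyltransferases, which attach sugars to small molecules, had 4 of 29 tested members higher and 2 lower. Ugt35C1 showed the largest change of the family, from 10.8, 8.36 and 7.12 FPKM in controls to 0.047, 0.228 and 0.156 FPKM in mutants. The gene was nearly silent in all 3 mutants (log2 fold change -3.08, SE 0.16, BH-adjusted p 0.000366). Ugt302E1 also fell, by 0.77, while Ugt317A1 rose by 0.78, Ugt35B1 by 0.67, Ugt49C1 by 0.62 and Ugt304A1 by 0.56 on the log2 scale (BH-adjusted p 0.00491 to 0.0487 for these 5). Ugt35C1 and Ugt302E1 passed the filter only through their control values, so their falls are partly set by it.

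Digestive enzymes of the midgut were higher in part. Of 27 tested Jonah and trypsin protease genes, 7 rose and 1 fell, and the median log2 fold change was 0.47. Jon66Ci stood at 380.3, 322.7 and 167.7 FPKM in controls and 841.8, 1257.8 and 1339.1 FPKM in mutants (log2 fold change 2.03, SE 0.35, BH-adjusted p 0.0228), and its neighbour Jon66Cii had a log2 fold change of 2.07 (SE 0.31, BH-adjusted p 0.0157). Among the trypsins, epsilonTry stood at 317.4, 391.6 and 211.8 FPKM in controls and 895.1, 1047.6 and 1140.0 FPKM in mutants (log2 fold change 1.78, SE 0.24, BH-adjusted p 0.0128), and betaTry had a log2 fold change of 1.53 (SE 0.27, BH-adjusted p 0.025). Control 3 was the lowest sample in each of these 4 genes. The protease list as a whole summed to 13348 FPKM in control 3, 25014 and 22907 FPKM in the other controls and 21237 to 32981 FPKM in mutants, so the summed levels of the groups overlapped. Without control 3 the list kept 5 higher and 1 lower calls, and without mutant 2 it had 1 higher and 1 lower.

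Several abundant proteases did not pass, among them Jon25Biii, Jon99Fi and deltaTry, with log2 fold changes of 0.73, 0.47 and 0.25 (BH-adjusted p 0.273, 0.363 and 0.571). Jon74E moved the other way, from 29.9, 32.6 and 33.4 FPKM to 11.7, 7.70 and 12.3 FPKM (log2 fold change -1.53, SE 0.17, BH-adjusted p 0.00686), and its call held in all 14 alternatives. Markers of the gut that are not digestive enzymes were not called: GATAe, the transcription factor of the midgut, had a log2 fold change of -0.04, and the gut myosins Myo31DF and Myo61F of 0.00 and 0.13 (BH-adjusted p 0.884, 0.978 and 0.432). In the midgut list as a whole, 5 of 28 tested members rose and 1 fell.

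The maltase genes, for enzymes that split disaccharides of the food, lie in a cluster on arm 2R, and 4 of the 13 maltase and amylase genes tested rose while 1 fell. Mal-A7 stood at 0.806, 1.45 and 0.884 FPKM in controls and 23.4, 16.7 and 16.7 FPKM in mutants, 18.1 times as high (log2 fold change 3.28, SE 0.18, BH-adjusted p 0.000486). Mal-A8 stood at 25.1, 31.0 and 32.6 FPKM in controls and 131, 91.4 and 92.7 FPKM in mutants (log2 fold change 1.78, SE 0.18, BH-adjusted p 0.00448). Mal-A6 and Mal-A1 had log2 fold changes of 1.27 and 1.14 (BH-adjusted p 0.029 and 0.0418). In the same cluster, Mal-A5 fell from 3.20, 4.25 and 4.39 FPKM to 0.836, 0.450 and 0.835 FPKM (log2 fold change -1.54, SE 0.15, BH-adjusted p 0.00439). In these maltases control 3 did not stand below the other controls. The amylases Amy-p and Amy-d did not pass (log2 fold changes 1.08 and 0.61, BH-adjusted p 0.153 and 0.377), and of 6 tested lysozyme genes LysP alone rose (log2 fold change 0.72, BH-adjusted p 0.0264).

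Muscle genes were lower in mutants. All 25 listed genes of body wall muscle were tested and 15 fell, none rose, and the median log2 fold change was -0.70. Their FPKM summed to 13475, 13733 and 12349 in controls and 8874.6, 6987.0 and 6169.5 in mutants. Mutant 1 was the highest mutant and still lay well below every control. In RNA of whole larvae, fewer cells of a type and less RNA per cell cannot be told apart. The largest falls were in Act87E, a muscle actin (479, 494 and 455 FPKM in controls, 178, 136 and 122 FPKM in mutants, log2 fold change -1.72, SE 0.16, BH-adjusted p 0.00327), and in TpnC73F, a troponin C (408, 401 and 371 FPKM against 164, 111 and 96.6 FPKM, log2 fold change -1.69, SE 0.20, BH-adjusted p 0.00807). Both calls held in all 14 alternatives.

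The other called muscle genes fell by 0.59 to 0.88 on the log2 scale. Mlc2, a myosin light chain, stood at 1984.4, 1868.7 and 1622.2 FPKM in controls and 1154.8, 957.8 and 863.8 FPKM in mutants (log2 fold change -0.88, BH-adjusted p 0.03). Mhc, the myosin heavy chain, stood at 334, 356 and 358 FPKM in controls and 236, 224 and 195 FPKM in mutants (log2 fold change -0.68, SE 0.11, BH-adjusted p 0.0201). Mf, of the thick filament, Mlp84B and Actn, of the Z-disc, and Prm, paramyosin, were in the same range (BH-adjusted p 0.0148, 0.016, 0.0234 and 0.0338). Act57B, the most abundant of the list, had a log2 fold change of -0.84 that did not pass (BH-adjusted p 0.0633).

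Genes of giant muscle proteins were not called. The titin-like genes sls and bt and the spectrin-like Msp300 had log2 fold changes of -0.37, -0.36 and 0.24 with overlapping groups (BH-adjusted p 0.294, 0.441 and 0.504). In each of the 3, control 3 was the highest control, with 12.9, 62.6 and 12.3 FPKM. The count of muscle genes called depended on single samples: it was 2 without control 1, control 2 or mutant 2, 3 without mutant 3, 6 without control 3 and 19 without mutant 1, all of them lower.

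Neuronal and glial markers were at low levels, and some were higher in mutants. Of 19 neuronal genes, 8 passed the filter, all with a positive log2 fold change, and 4 rose. nSyb, the synaptic vesicle synaptobrevin, stood at 2.92, 2.62 and 3.65 FPKM in controls and 5.53, 6.65 and 6.83 FPKM in mutants (log2 fold change 0.86, SE 0.13, BH-adjusted p 0.0157). The calcium sensor Syt1, unc-13 and cpx, which act in vesicle release, had log2 fold changes of 0.71, 0.61 and 0.60 (BH-adjusted p 0.0234, 0.0297 and 0.027). The general neuronal marker elav and the membrane fusion gene Syx1A did not pass, with log2 fold changes of 0.17 and 0.07 (BH-adjusted p 0.347 and 0.753). Of these 8, 3 passed the filter only through their mutant values, Syt1 and unc-13 among them, so the direction and part of the calls are set by the filter. None of the 8 was called without control 1 or control 2, and none of the 5 still tested without mutant 2 or mutant 3. The 11 neuronal genes below the filter, brp and futsch among them, are not described by these counts. Of 10 tested glial genes Eaat1, a glutamate transporter, alone rose (log2 fold change 0.39, BH-adjusted p 0.0424). That is 10% of the list, against 9.40% called over all genes. All 10 had a positive log2 fold change, 4 had an unadjusted p under 0.05, and 1 passed the filter only through its mutant values.

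**Figure D5:**
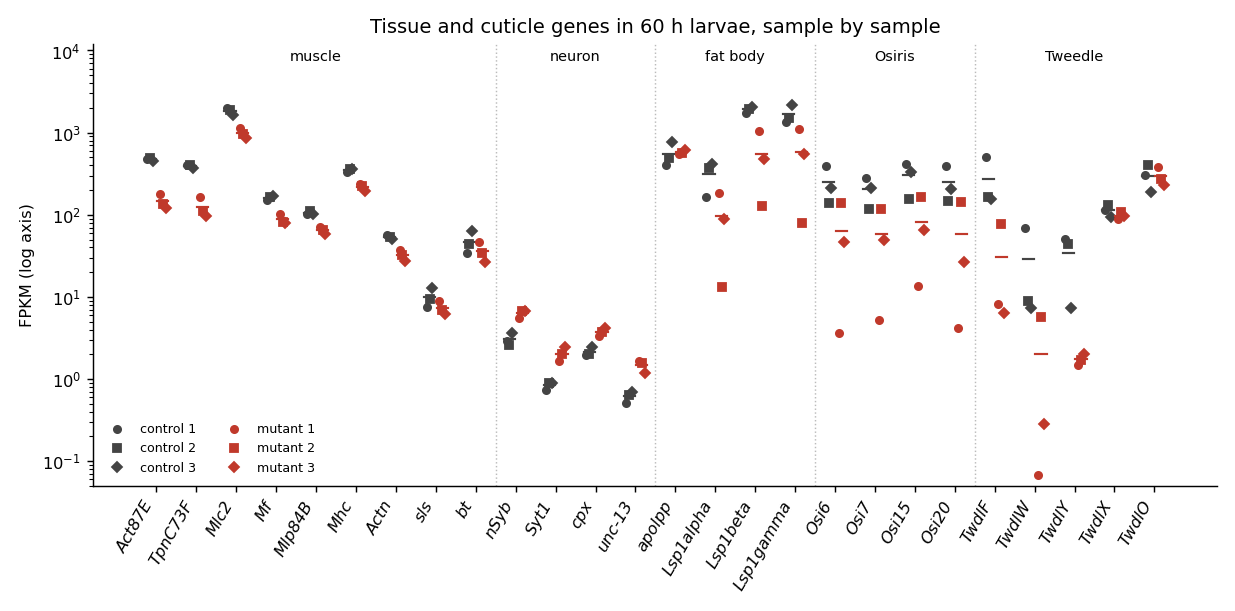
FPKM on a log axis for markers of muscle, neurons and fat body and for Osiris and Tweedle genes in each of the 3 control (dark) and 3 mutant (red) samples; marker shape gives the sample and the short line the arithmetic mean. Muscle genes other than sls and bt are lower in all mutants, the Osiris genes are lowest in mutant 1 and the Lsp1 genes lowest in mutant 2.

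In the fat body list, the mutants differed widely among themselves in larval serum protein genes. The Lsp1 genes encode storage proteins that the fat body secretes late in larval life. Lsp1beta stood at 1755.4, 1946.5 and 2069.1 FPKM in controls and at 1043.0, 126.6 and 480.6 FPKM in mutants, and Lsp1gamma at 1345.2, 1525.7 and 2195.2 FPKM and at 1093.9, 80.3 and 550.9 FPKM. Every mutant value was below every control value, but mutant 2 lay far below mutant 1, and neither gene passed (log2 fold changes -2.26 and -2.17, SE 0.72 and 0.92, BH-adjusted p 0.104 and 0.189). Lsp1alpha overlapped between the groups (log2 fold change -2.25, BH-adjusted p 0.186). The lipoprotein gene apolpp, a marker of fat body that is expressed throughout, had a log2 fold change of 0.13 (BH-adjusted p 0.775). Of the 9 members tested, AkhR was the only one called, a share of 11.1% against 9.40% over all genes.

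Genes known to peak when new cuticle is made were uneven between samples. Osiris genes, of which 12 of 25 were tested, had a median log2 fold change of -2.44, and none was called, with 4 at an unadjusted p under 0.05 and none called by voom. Their summed FPKM was 2145.2, 776.3 and 1320.9 in controls and 33.1, 893.5 and 248.4 in mutants, so mutant 2 lay among the controls and mutant 1 far below them. Osi20, for example, stood at 395, 146 and 206 FPKM in controls and 4.23, 144 and 26.7 FPKM in mutants (log2 fold change -3.06, SE 1.16, BH-adjusted p 0.151). Of 22 tested Tweedle genes, which encode structural cuticle proteins, 3 fell and none rose, with a median of -2.27. These were TwdlY, TwdlR and TwdlS. TwdlY stood at 50.6, 44.0 and 7.36 FPKM in controls and 1.50, 1.72 and 2.02 FPKM in mutants (log2 fold change -3.30, SE 0.68, BH-adjusted p 0.0365), TwdlR had a log2 fold change of -2.75 and TwdlS of -2.66 (BH-adjusted p 0.0337 and 0.0406). They were called in 6 of 14, 4 of 10 and 4 of 13 alternatives. TwdlB, named after its values were seen, stood at 167 FPKM in control 2 and at 16.7 and 1.36 FPKM in the other controls.

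The larger family of Cpr and Lcp cuticle proteins had 1 higher and 1 lower among 62 tested, with a median of 0.04. Cpr11B rose by 1.46 and Cpr49Ad fell by 1.36 on the log2 scale (BH-adjusted p 0.0189 and 0.0175). In chitin synthesis and modification, Cda9, a chitin deacetylase, rose and knk, which organises chitin, fell, among 26 tested (log2 fold changes 0.85 and -0.66, BH-adjusted p 0.0342 and 0.0434). These calls were 7.69% of that list, against 9.40% over all genes. Of the 26, 18 had a negative log2 fold change, 11 had an unadjusted p under 0.05, and the median was -0.27. Of 11 ecdysone response genes tested, ImpE3 fell and E23, an ecdysone-responsive transporter, rose (log2 fold changes -0.51 and 0.43, BH-adjusted p 0.025 and 0.0483), and none of 6 tested genes of ecdysone synthesis was called. ImpE2 stood at 115, 66.1 and 71.7 FPKM in controls and 3.20, 54.9 and 2.68 FPKM in mutants, again with mutant 2 close to the controls (log2 fold change -3.12, BH-adjusted p 0.115). Whether this spread of moult-linked genes between samples contributes to other calls was not tested.

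Markers of other tissues were called in at most 1 gene per list. None of 13 tested hemocyte markers was called, and their median log2 fold change was 0.02. The same count of 0 held for 7 Malpighian tubule genes, 6 genes of endocrine glands, 1 neuroblast gene, 2 germline and testis genes and 9 genes of mucins and peritrophic matrix, with voom as well. At an unadjusted p under 0.05 stood 0 of the hemocyte genes, 3 of the tubule genes, 2 of the gland genes and 4 of the mucin genes, and 2382 of all 8619 genes. None of the 15 imaginal disc genes reached the filter. Among 8 tested tracheal genes knk was the only call (12.5%, against 9.40% over all genes). All 8 log2 fold changes were negative with a median of -0.46, and 4 had an unadjusted p under 0.05. A tracheal gene below the filter, dysf, went the other way, with 0.119, 0.150 and 0.121 FPKM in controls and 0.895, 0.747 and 0.524 FPKM in mutants. Limma with no filter called it higher (BH-adjusted p 0.031). In this list btl, the FGF receptor of tracheal branching and a known target of hypoxia signalling, stood at 1.49, 1.77 and 2.06 FPKM in controls and 1.41, 1.45 and 1.07 FPKM in mutants (log2 fold change -0.26, BH-adjusted p 0.227). Among 5 oenocyte genes, with a median of -0.74, eloF, a fatty acid elongase of cuticular hydrocarbons, fell (log2 fold change -1.16, BH-adjusted p 0.0146). The more abundant Cyp4g1 stood at 97.1, 110 and 135 FPKM in controls and 71.2, 35.6 and 29.7 FPKM in mutants. Its log2 fold change of -1.39 did not pass (BH-adjusted p 0.0508), although it did in 3 of 14 alternatives. Of the 5 oenocyte genes, 4 had a negative log2 fold change. AstA alone of 5 enteroendocrine peptides and factors rose (log2 fold change 0.55, BH-adjusted p 0.0432).

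In the salivary gland list 1 of 9 tested genes rose, or 11.1%, against 9.40% called over all genes. Of the 9, 8 had a positive log2 fold change and the median was 0.43. Sgs5, a glue protein gene, stood at 4.28, 4.95 and 6.48 FPKM in controls and 72.4, 76.1 and 86.3 FPKM in mutants, 14.9 times as high (log2 fold change 3.68, SE 0.15, BH-adjusted p 0.000169), and the call held in all 14 alternatives. The gland's transcription factors fkh, sage and CrebA did not pass (log2 fold changes 0.43, 0.16 and -0.14, BH-adjusted p 0.0588, 0.508 and 0.448). The dosage compensation RNAs roX1 and roX2, which are made in males, had log2 fold changes of 0.02 each with overlapping groups (BH-adjusted p 0.961 and 0.969 for lncRNA:roX1 and lncRNA:roX2).

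Calls were also counted in the lists of ribosomal, mitochondrial and cell division genes. Of 85 tested cytosolic ribosomal protein genes 1 was called, RpS10a, which rose from 0.260 to 1.13 FPKM in controls to 2.83 to 3.27 FPKM in mutants (log2 fold change 1.29, BH-adjusted p 0.0165). None of 64 nuclear genes of oxidative phosphorylation was called (median -0.03), and none of 19 tested genes of the mitochondrial genome (median -0.43), with 6 and 2 at an unadjusted p under 0.05 and none called by voom. Among mitochondrial ribosomal protein genes, 9 of 72 tested fell, or 12.5%, against 5.24% lower and 9.40% called over all genes. Of the 72, 65 had a negative log2 fold change and the median was -0.25. The largest of these falls were in mRpL18, mRpS18A, mRpS11 and mRpL17 (log2 fold changes -0.56, -0.53, -0.51 and -0.51, BH-adjusted p 0.0294, 0.0455, 0.0192 and 0.0434). With quantile normalization 2 of them were called, and none was without control 1, control 2, mutant 2 or mutant 3. In cell cycle and replication, 1 of 26 genes, CycB3, rose (log2 fold change 0.49, BH-adjusted p 0.0418), and none of 11 apoptosis genes was called, 3 having an unadjusted p under 0.05. V-ATPase subunits had 1 higher and 1 lower among 22, or 9.09%, a share close to the 9.40% over all genes.

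Immune genes were uneven. Drsl5, a drosomycin-like antifungal peptide of the gut, was the only 1 of 9 tested antimicrobial peptide genes called (11.1%, against 9.40% over all genes). It stood at 6.95, 6.89 and 2.59 FPKM in controls and 95.3, 61.3 and 91.9 FPKM in mutants, 15.1 times as high (log2 fold change 3.76, SE 0.35, BH-adjusted p 0.00356). Drs, drosomycin itself, was 278 FPKM in mutant 3 but 14.3 and 8.50 FPKM in the other mutants and 1.51 to 15.3 FPKM in controls, and did not pass (log2 fold change 2.65, BH-adjusted p 0.269). Mutant 3 was also the highest sample in AttA, AttB, AttC and Mtk. Of the 9 tested peptide genes, 8 had a positive log2 fold change. Among peptidoglycan recognition proteins PGRP-LA fell and PGRP-SC2 rose (log2 fold changes -1.19 and 1.70, BH-adjusted p 0.0192 and 0.0491), and none of 3 tested stress-secreted genes, TotA and TotC included, was called.

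Odorant-binding proteins, small carriers that are also secreted into hemolymph, held the largest fall among all called genes. Obp99b stood at 31.5, 75.6 and 59.0 FPKM in controls and 5.70, 1.54 and 1.47 FPKM in mutants, 19.1 times as high in controls (log2 fold change -3.93, SE 0.48, BH-adjusted p 0.0093). Its neighbour Obp99a was far more abundant, with 696, 608 and 401 FPKM in controls and 100, 152 and 149 FPKM in mutants (log2 fold change -2.07, SE 0.26, BH-adjusted p 0.0098). Each was called in 13 of 14 alternatives. Of the 17 members tested, 3 rose, Obp58c, Obp49a and Obp56h, with log2 fold changes of 1.17, 1.07 and 1.03 (BH-adjusted p 0.0065, 0.0452 and 0.0479).

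Among the 12 largest rises and 12 largest falls, several genes are in no list. The first is lncRNA:CR44138, a non-coding RNA, which stood at 5.13, 3.12 and 4.94 FPKM in controls and 214, 142 and 105 FPKM in mutants (log2 fold change 4.81, SE 0.29, BH-adjusted p 0.000626). CG11893 stood at 6.06, 4.60 and 7.33 FPKM in controls and 120, 91.3 and 85.5 FPKM in mutants (log2 fold change 3.84, SE 0.19, BH-adjusted p 0.000348). On the other side, CG34330 fell from 115, 96.6 and 91.6 FPKM to 5.36, 4.33 and 8.57 FPKM (log2 fold change -3.89, SE 0.22, BH-adjusted p 0.00059). In each of these 3 genes the gap between the groups was wide.

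Sodh1, a sorbitol dehydrogenase that links sorbitol and fructose, fell from 126, 138 and 93.3 FPKM to 12.7, 24.1 and 17.0 FPKM (log2 fold change -2.69, SE 0.25, BH-adjusted p 0.00356). CG1544 fell by 3.27, CG46396 by 2.81 and CG32444 by 2.68 on the log2 scale (BH-adjusted p 0.00137, 0.029 and 0.000565). Of these, CG46396 was called in 8 of 14 alternatives and the others in all 14. The small nucleolar RNA snoRNA:Me28S-A2564 was listed at 0 in all 3 mutants and at 8.46, 5.28 and 3.41 FPKM in controls (BH-adjusted p 0.00457). It was 1 of 7 snoRNAs lower in mutants, with 1 higher, among 111 tested. Poly(A) selection captures snoRNAs poorly, and many lie inside introns of other genes. The counting is not stated to use strand, so reads of overlapping genes cannot be told apart.

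By position, 11.4% of tested genes were called on arm 3R, which carries sima, 9.32% on 2L, 9.62% on 2R, 9.39% on 3L, 7.81% on chromosome 4 and 6.34% on X. On Y, none of 6 genes was called. Within 1 Mb of sima, 172 genes were tested, of which 19 were lower and 3 higher, 12.8% in all. Within 2 Mb there were 23 lower and 8 higher among 269 (11.5%). The nearby called genes include the glycolytic genes Tpi and Pglym78 and the muscle gene Mlc2, as well as Obp99a, Obp99b and snoRNA:Me28S-A2564. Mutants and controls differ in the chromosome that carries allele 20, so an effect of linked variants and an effect of sima cannot be told apart for these neighbours.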

How the data were processed

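Total RNA of whole larvae was extracted with an RNeasy kit and made into stranded mRNA libraries, per the labels' protocols. The authors deposited FPKM values per gene for the 6 larval samples. The submitters' processing notes name featureCounts, DESeq2 and the build BDGP6, with no role or version; the sources used here give no aligner and no strand setting. Of 24278 rows, 17895 carry an FBgn identifier, and 17855 of these matched a symbol in the Ensembl 115 annotation (BDGP6.54); the other 6383 rows were left out.

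FPKM holds no counts, so depth was estimated from the smallest steps of low values: 99.4% of 3996 low values were whole multiples of the lowest value of their row within a tolerance of 0.05. Precision is limited by this depth and by 3 samples per group. Genes with at least 1 FPKM in at least 3 samples were tested on log2(FPKM + 1) with limma 3.58.1 (eBayes with trend, two-sided) in R 4.3.3; p-values were adjusted by the Benjamini-Hochberg method, and the threshold was 0.05. The procedure was checked on simulated data; Python 3.11.15 did the rest.

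The 59 lists hold 1567 genes, of which 1081 were tested and 161 called. Members and lists were chosen with earlier results of these data known. Genes were named if they belonged to a list, or were among the 12 largest rises or falls past the threshold with groups that did not overlap; in families of over 10 members, up to 4 called members per direction were named. Alternatives changed the pseudocount, the filter, the scaling, the variance model, the block or the minimum fold, or left out each sample. Same-numbered samples of the 2 groups were not used as pairs in the main fit. Their deviations cannot show whether they were handled together, and the fit with the replicate number as a block is given below. Embryo samples, whose table was normalized separately, were not used here.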

Additional observations from a re-analysis of the deposited data

How the results depend on the processing

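Against 810 genes called, 358 higher and 452 lower, the counts were 485, 223 and 262 with no filter on low values, and 242, 123 and 119 with a minimum size of 1 on the log2 scale. Leaving out 1 sample gave 200 to 797 called genes, 95 to 324 higher and 95 to 473 lower, and 59 to 161 called genes within the lists against 161. The other scalings, pseudocounts, filters and variance models gave 749 to 866 called genes. Quantile normalization put 55.0% of the calls higher and median centring 53.4%, against 44.2% as deposited. With the replicate number as a block, 133 genes were called, 63 higher and 70 lower, 50 of them in lists. The deviations of same-numbered samples correlated at -0.37, -0.39 and -0.17. With 3 samples per group, these values cannot show whether same-numbered samples were handled together. Of the 136 called genes named above, 49 kept the call in every alternative that tested them and 87 lost it in at least 1. Of 62 named genes that were tested but not called, 11 gained it. No called gene turned its direction. The cause of these differences was not tested.

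Limits are 3 samples per group with unstated separate origin, values without counts, a log2(FPKM + 1) scale that understates low genes, 9276 genes below the filter, and whole larvae in which tissues are mixed. The planned search for a promoter motif was not run.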
